A study of Mus musculus with 2 samples.

Results

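The genes described here are the collagen genes carried by a whole-genome mouse expression array, chosen by name: every non-control probe whose gene name was Col, a number, a and a number. The rule used no measured value and found 41 genes among the 31870 genes or unnamed transcripts on the array, with 61 of its 39429 probes. Of these, 38 genes were bright enough to be compared. RNA came from dissected ureters of NMRI mouse embryos at stage E14.5, counted in days after conception. Smad4cKO (UM) embryos were Tbx18(cre/+);Smad4(fl/fl), so Cre made from the Tbx18 locus removes Smad4 in the mesenchyme around the ureter while other cells of the dissected tube keep it. Control embryos were Tbx18(+/+);Smad4(fl/+). The Smad4cKO embryos carried a Tbx18 Cre allele that control embryos lacked, and its effect cannot be told apart from that of Smad4 loss. Of the 2 two-colour arrays, array 1 held a female pair, with Smad4cKO RNA labelled green and control RNA labelled red, and array 2 a male pair, with Smad4cKO RNA labelled red and control RNA labelled green. Dye and sex changed together, so their effects cannot be told apart, and the labels do not give the number of embryos per RNA.

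Collagens are secreted triple helices built from repeats of glycine and 2 further residues, written Gly-X-Y. Fibrillar collagens form the tension-bearing fibres of connective tissue, network collagens form sheets such as the basement membrane, and FACITs (fibril-associated collagens with interrupted triple helices) sit on the surface of fibrils. The remaining collagens include microfibril formers, anchoring fibrils, transmembrane collagens and the collagens that carry endostatin-like domains. In the embryonic ureter the mesenchyme forms an inner fibrous layer, a smooth muscle coat and an outer fibrous layer. SMAD4 is the shared partner of the SMADs that carry BMP and TGFB signals, and TGFB is a well known inducer of collagen synthesis in fibroblasts.

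Every ratio below is the channel labelled Smad4cKO over the channel labelled control, on the log2 scale, so a negative value means dimmer in Smad4cKO. This follows the dye labels. The authors' deposited table runs the other way, as the ratio of the labelled control to the labelled Smad4cKO, whereas the titles name Smad4cKO first. Brighter and dimmer would swap throughout if each array's dye labels were the wrong way round. Smad4 gave -0.69 on array 1 and -0.14 on array 2 at its brightest probe, and -0.31 and -0.49 at its second probe. Neither the brightest Smad4 probe nor Tbx18 (0.07 and 0.81) passed limma's test, and whether these probes lie in the deleted part of Smad4 was not tested. Between 68.3% and 70.3% of spots were well above background in the 4 channels, median signal over background was 8.79 to 10.8, and 0 spots were saturated. The number of arrays, 2, limits the precision of every value. The labels give the arrays replicate numbers but name no litters, so p-values rest on these 2 pairs alone. Limma pools most of the spread behind them over all genes.

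Of the 61 collagen probes, 6 (9.84%) hold a run of at least 3 Gly-X-Y codon triplets in the sense strand, against 0.634% of all 39429 probes. These 60-base probes read the repeat that all collagens share. One from each of the network, FACIT and other classes is shown, 5′ to 3′ as on the array, with the glycine codons of the longest run in capitals.
Col4a4 (chr1:82515563-82515622, mm9, minus strand): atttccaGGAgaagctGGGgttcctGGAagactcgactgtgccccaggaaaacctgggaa
Col14a1 (chr15:55347733-55347792, mm9, plus strand): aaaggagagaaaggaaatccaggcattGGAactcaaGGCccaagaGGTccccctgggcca
Col15a1 (chr4:47283786-47283845, mm9, plus strand): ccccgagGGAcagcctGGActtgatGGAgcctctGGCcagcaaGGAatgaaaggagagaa
None of the 3 reached 1.5-fold on either array. The Col4a4 probe gave 0.31 on array 1 and 0.03 on array 2. The Col14a1 probe gave 0.20 and -0.34, and the Col15a1 probe 0.10 and -0.09. The closeness of such repeats between genes makes cross-hybridisation possible in principle, which was not tested.

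The collagens lay on both sides of 0. The median log2 ratio of the 38 tested collagen genes was -0.02, with -0.17 on array 1 and 0.03 on array 2, beside 0.0047 over all 21238 genes tested. By limma with Benjamini-Hochberg adjustment over all genes, 0 collagens passed an adjusted p of 0.05, against 0% of all genes brighter and 0.00471% dimmer. At an unadjusted p under 0.05, 2 of 38 collagens were brighter in Smad4cKO, beside 2.14% of all genes, and 6 of 38 (15.8%) were dimmer, beside 2.97% of all genes. A second rule, with no test, asked that both arrays pass 1.5-fold on the same side of 0. By it 0 collagens were brighter, against 0.49% of all genes, and 1 was dimmer, against 0.523%. That gene was Col8a1. A further 3 collagens passed 1.5-fold in opposite directions, against 1.25% of all genes, and these were Col1a1, Col1a2 and Col3a1.

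Most collagens had the same sign on both arrays, and many of these signs depended on the processing. In 14 of 38 collagens both arrays were negative, beside 19.8% of all genes, and in 10 both were positive, beside 19.9%. The other 14 had opposite signs, beside 60.3% of all genes. Both Smad4cKO channels lay below both control channels for 13 of 38 collagens (34.2%), beside 14.1% of all genes, and above both for 6 (15.8%), beside 14.2%. The groups thus did not overlap for 19 collagens, beside 28.3% of all genes. Of the 24 collagens with a shared sign, 12 (50%) had it under each of the 9 alternative normalisations and filters. The share was 50.4% of the 8439 genes with a shared sign in the whole table. The 9 are not independent checks. For a gene with 1 probe in 1 spot, changed filters, averaged probes and kept outliers leave the ratio unchanged. Of these 12, 4 were brighter in Smad4cKO (Col5a3, Col9a2, Col17a1 and Col23a1), which is 10.5% of 38, beside 10% of all genes tested. The other 8 were dimmer (Col4a5, Col6a4, Col6a6, Col7a1, Col8a1, Col22a1, Col24a1 and Col25a1), which is 21.1% of 38, beside 9.96% of all genes tested. By class, the dimmer and brighter genes with a shared sign numbered 5 and 2 of 8 network collagens, 3 and 2 of 11 fibrillar collagens, 2 and 2 of 8 FACITs, and 4 and 4 of 11 other collagens.

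**Figure D1:**
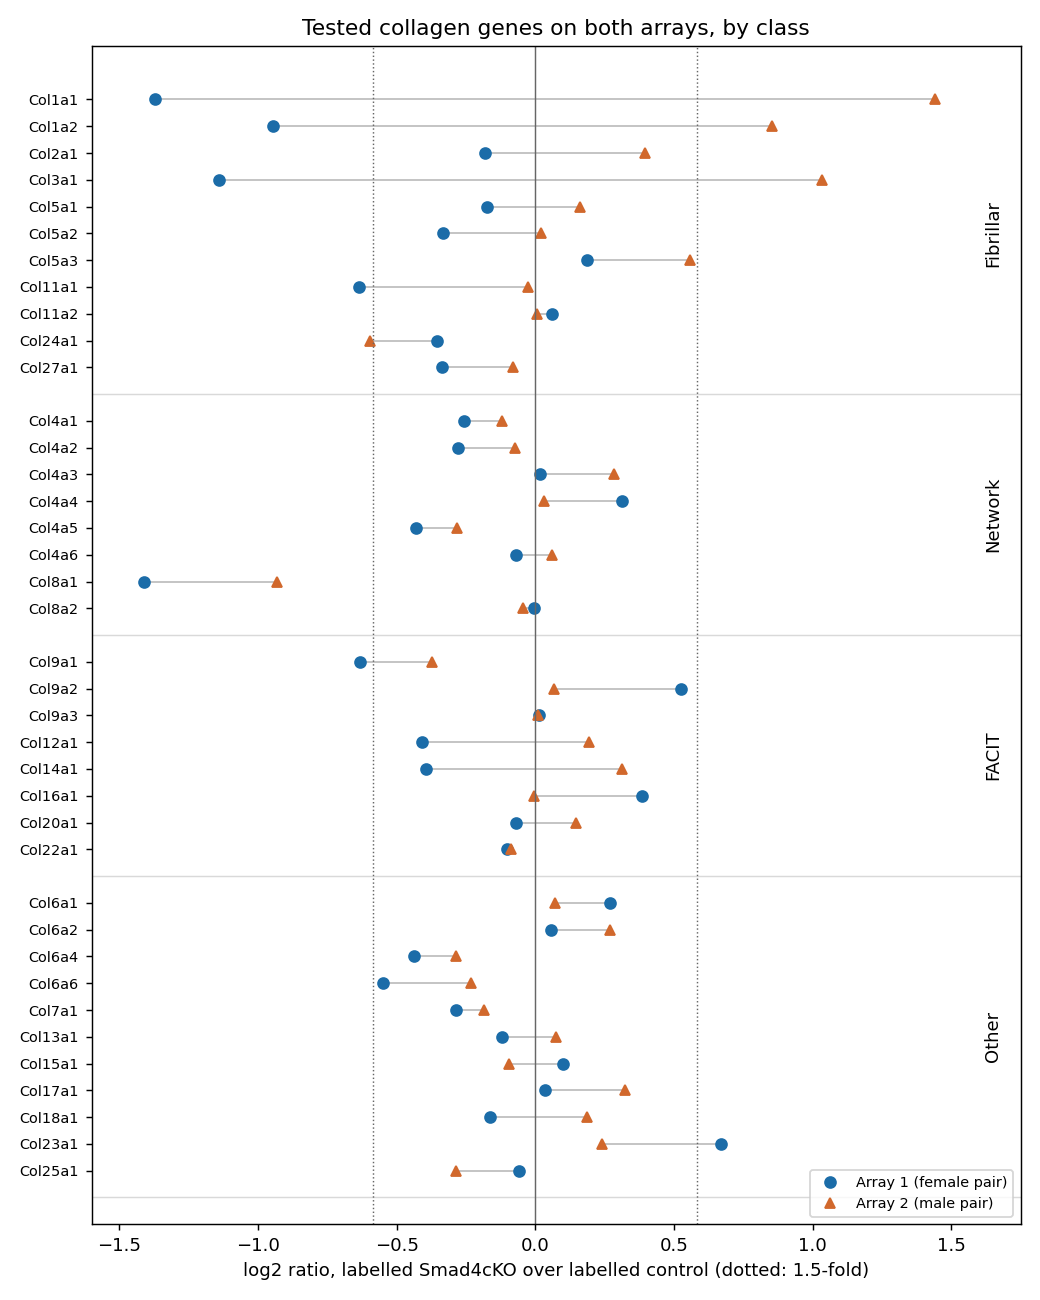
Log2 ratio of labelled Smad4cKO over labelled control for each of the 38 tested collagen genes, on array 1 (circles, female pair) and array 2 (triangles, male pair), grouped by class, with dotted lines at 1.5-fold. Col8a1 lies beyond the line on the same side on both arrays, and Col1a1, Col1a2 and Col3a1 lie beyond it on opposite sides.

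Among the network collagens Col8a1 stood furthest from 0. It encodes a chain of type VIII collagen, a short-chain collagen that forms hexagonal lattices under endothelium and in vessel walls. Its probe (chr16:57624471-57624530, mm9, minus strand) had normalised intensities of 187 on array 1 and 206 on array 2 in the Smad4cKO channels, against 496 and 393 in the control channels. Both Smad4cKO values lay below both control values, and the probe was well above background in all 4 channels. The log2 ratios were -1.41 and -0.93, with a mean of -1.17 (limma SE 0.163, n = 2 arrays), a 2.25-fold lower signal. Limma's adjusted p was 0.139. With the scanner software's processed signals limma's adjusted p for Col8a1 was 0.00084, with the authors' deposited values 0.00784 and with a smaller offset 0.0307, and without the loess step it was near 1. Its ratio stayed past 1.5-fold on both arrays in each of 10 settings, which are not independent. The changed filters, averaged probes and kept outliers repeat the main ratio, since the gene has 1 probe in 1 spot. The processed signals (-2.11 and -1.40) and the deposited values (-2.11 and -1.39) gave nearly the same ratios. The authors' deposited table lists Col8a1 with signed folds of 4.31 and 2.63, control over Smad4cKO.

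The stretch of 250 bases before the start of Col8a1 is shown because this is the collagen on which the untested rule turns, with the SMAD-binding element CAGAC in capitals (RefSeq, GRCm38.p6, minus strand, chr16:57754738-57754987).
Col8a1: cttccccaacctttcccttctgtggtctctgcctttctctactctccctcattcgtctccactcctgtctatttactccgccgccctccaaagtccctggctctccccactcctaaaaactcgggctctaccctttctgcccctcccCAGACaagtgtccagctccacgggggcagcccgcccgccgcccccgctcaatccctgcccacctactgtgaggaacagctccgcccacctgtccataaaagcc
It holds CAGAC, searched on both strands, 1 time, and GGCGCC, a SMAD-binding GC motif, 0 times. CAGAC was found in 42.2% of all 32851 promoter entries and in 44.4% of the 36 entries of 33 collagen genes. GGCGCC was found in 9.59% of all entries and in 11.1% of the collagen entries. The other 8 collagen genes had no entry.

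The partner chain Col8a2 gave -0.0038 and -0.04, with intensities of 16875 and 15331 in Smad4cKO, against 16920 and 15798 in control. Both Col8a2 probes were negative on both arrays. Col10a1, the network collagen of hypertrophic cartilage, was not well above background in any channel at either of its probes and was not tested.

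Type IV collagen forms the basement membrane under the urothelium and around smooth muscle cells, and its chains are encoded by head-to-head gene pairs. Col4a1 and Col4a2 (chromosome 8, starts 21 bases apart) make the widespread network, whereas Col4a3 with Col4a4 and Col4a5 with Col4a6 make tissue-restricted ones. The Col4a1 probe (chr8:11199009-11199068, mm9, minus strand) gave 19900 and 20130 in Smad4cKO, against 23762 and 21871 in control. Col4a2 gave 14710 and 15377 in Smad4cKO, against 17859 and 16161 in control. The log2 ratios were -0.26 and -0.12 for Col4a1 (mean -0.19, SE 0.133, n = 2 arrays) and -0.28 and -0.07 for Col4a2. Both genes turned to a positive ratio on array 2 when arrays were only centred on the median (0.27 and 0.24). Col4a1 was printed in 10 spots on each array, which gave log2 ratios between -0.30 and -0.22 on array 1 (SD 0.0272) and between -0.17 and -0.07 on array 2 (SD 0.0294). The 2 arrays therefore differed by more than the spots of 1 array did, and the mean ratio over its SE did not pass limma's test.

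Col4a5, encoded on the X chromosome, had the next lowest mean among the network collagens after Col8a1. Its probe (chrX:138123547-138123606, mm9, plus strand) gave 6658 and 7747 in Smad4cKO, against 8976 and 9412 in control. The groups did not overlap, and the ratios of -0.43 and -0.28 averaged -0.36 (SE 0.134, n = 2 arrays; limma's unadjusted p 0.0382 and adjusted p 0.866). Its neighbour Col4a6, whose start lies 1343 bases away, gave -0.07 and 0.06. Col4a3 gave 0.02 and 0.28, and Col4a4 0.31 and 0.03 at its brightest probe. Col4a3 was dim, at the 2.35th percentile of brightness, and its control channel on array 1 was not well above background. The second tested Col4a4 probe gave -0.01 and -0.03.

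Of the 11 fibrillar collagens, 6 had opposite signs on the arrays, beside 60.3% of all genes. Of the 11, 3 passed 1.5-fold in opposite directions, beside 1.25% of all genes. Col1a1 and Col1a2 encode the chains of type I collagen, the main fibre of connective tissue, and Col3a1 encodes type III collagen, its partner in extensible organs. Col1a1 (chr11:94813115-94813174, mm9, plus strand) gave 40516 on array 1 and 100310 on array 2 in Smad4cKO, against 104839 and 36921 in control. Col1a2 (chr6:4490619-4490678, mm9, plus strand) gave 88878 and 185133 in Smad4cKO, against 171133 and 102545 in control. Col3a1 (chr1:45405589-45405648, mm9, plus strand) gave 58479 and 120719 in Smad4cKO, against 128830 and 58958 in control. In each of the 3 the red channel was the brighter one on both arrays, whichever group it held, and the groups overlapped. The log2 ratios were -1.37 and 1.44 for Col1a1, -0.95 and 0.85 for Col1a2, and -1.14 and 1.03 for Col3a1.

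**Figure D2:**
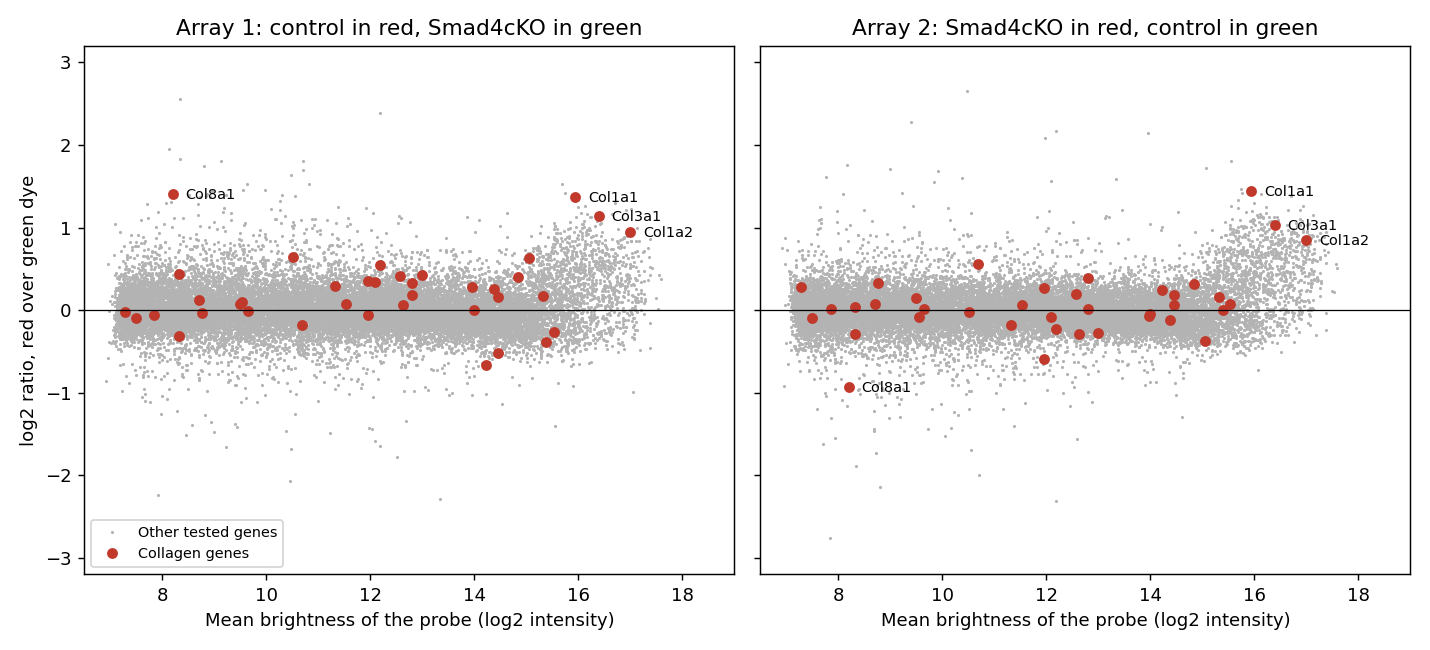
Log2 ratio of red over green dye (vertical axis) against mean probe brightness in log2 intensity (horizontal axis) for all 21238 genes tested (grey) and the 38 collagens (red) on each array, with both axes the same in each panel. Col1a1, Col1a2 and Col3a1 lie at the bright end, red on both arrays and above most genes as bright, whereas Col8a1 is red on array 1 and green on array 2.

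The probes of these 3 genes lay at the bright end of the array. Counting every gene at least as bright as the dimmest of the 3, which lay at the 96.6th percentile, 715 genes qualified. Of these, 160 (22.4%) had a red channel past 1.5-fold above the green one on each array and 0 had the reverse, against 1.23% and 0.0235% of all genes. The median log2 red over green ratio of the 715 genes was 0.28 on array 1 and 0.42 on array 2, and the upper quartile 0.56 and 0.72. Col1a1, Col1a2 and Col3a1 lay above that quartile on both arrays, from 0.85 to 1.44. Of the 715, 516 (72.2%) were red on both arrays, beside 28.6% of all genes. The arrays were already normalised by loess. For type I and type III collagen an effect of the dye and a difference between the sexes cannot be told apart on these 2 arrays.

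The other 8 fibrillar collagens had smaller ratios. Col24a1, a minor fibrillar collagen of developing bone and cornea, had the lowest mean. Its probe (chr3:145214473-145214532, mm9, plus strand) gave 3504 and 3250 in Smad4cKO, against 4484 and 4908 in control. The groups did not overlap, and the ratios were -0.36 and -0.59 (mean -0.48, SE 0.139, n = 2 arrays; limma's adjusted p 0.571). Col5a3 encodes a chain of type V collagen, which regulates fibril diameter. It gave 1587 and 2182 in Smad4cKO, against 1396 and 1483 in control, and its ratios of 0.19 and 0.56 averaged 0.37 (SE 0.151, n = 2 arrays; limma's adjusted p 0.978). The 2 other type V chains did not share a sign: Col5a1 gave -0.17 and 0.16, and Col5a2 -0.33 and 0.02.

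Col27a1, a fibrillar collagen of cartilage and developing epithelia, gave 3830 and 4331 in Smad4cKO, against 4837 and 4581 in control, ratios of -0.34 and -0.08. Without the loess step its ratio on array 2 was positive (0.06). The cartilage fibril chain Col11a1 gave 1127 and 1490 in Smad4cKO, against 1752 and 1518 in control, so that it passed 1.5-fold on array 1 alone (-0.64 and -0.03). Col2a1, the main fibril of cartilage, gave -0.18 and 0.39, and Col11a2 0.06 and 0.01.

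**Figure D3:**
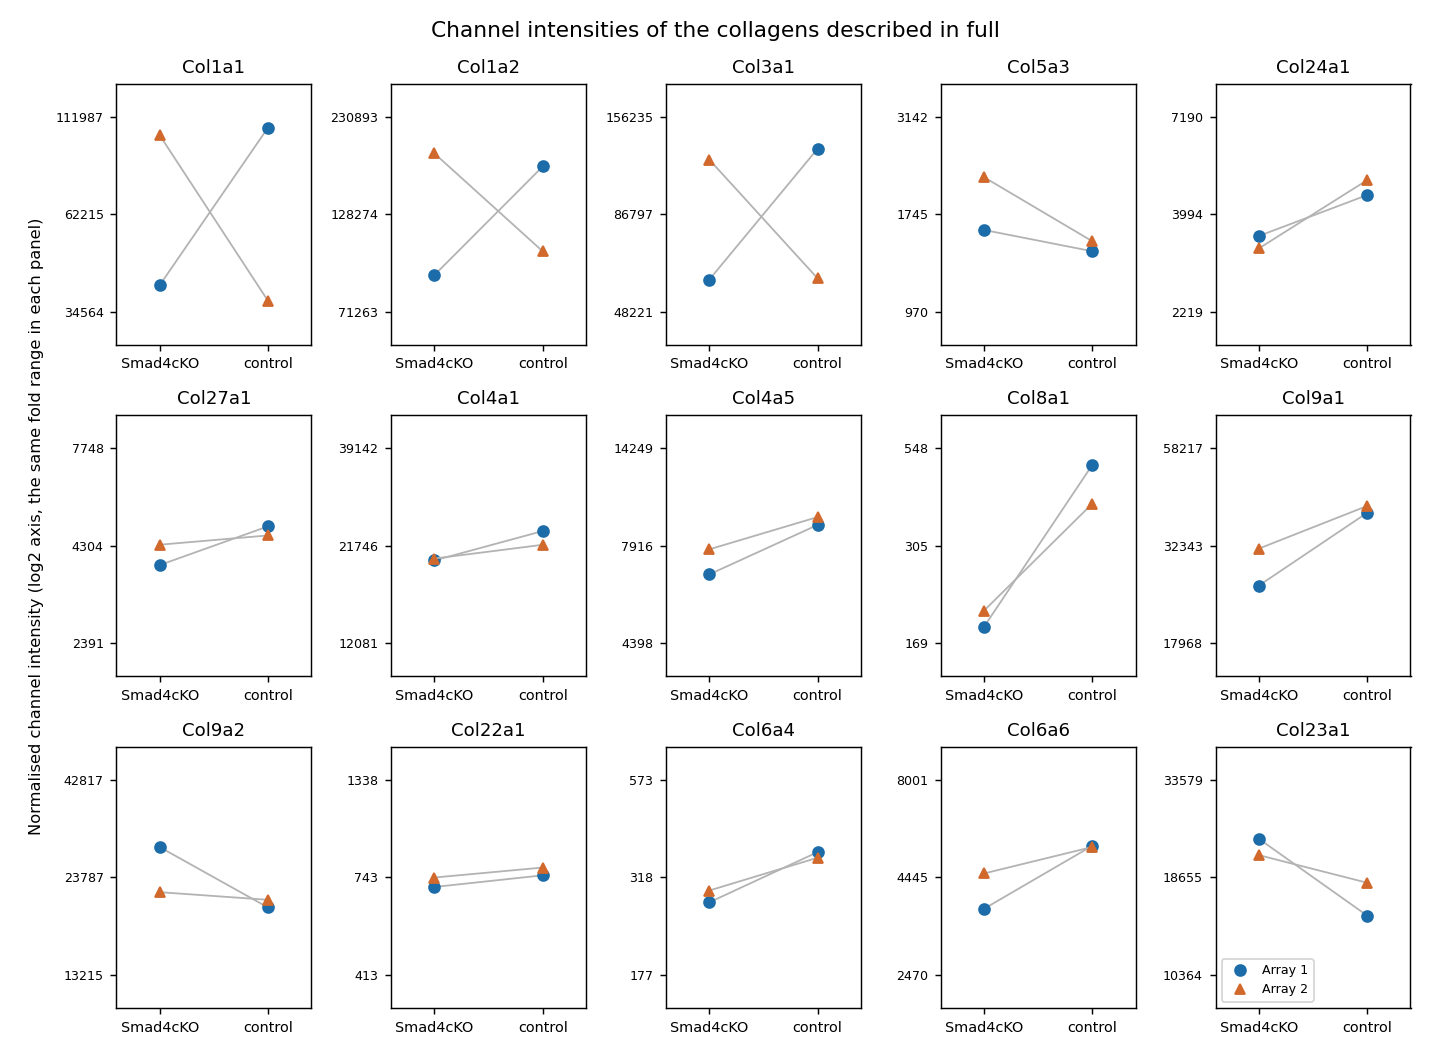
Normalised channel intensity of the 15 collagens described in full, on a log2 axis that spans the same fold in each panel, with Smad4cKO left of control and a line joining the channels of array 1 (circles) and of array 2 (triangles). The lines cross in Col1a1, Col1a2 and Col3a1 and slope upward to control on both arrays in Col8a1.

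Among the FACITs, the chains of type IX collagen lay on both sides of 0. Type IX collagen decorates cartilage fibrils and is also made in some epithelia. Col9a1 (chr1:24259125-24259184, mm9, plus strand) gave 25436 and 31791 in Smad4cKO, against 39469 and 41124 in control. Its groups did not overlap, and the ratios were -0.63 and -0.37 (mean -0.50, SE 0.141, n = 2 arrays; limma's adjusted p 0.524). Its second probe (201 and 195 in Smad4cKO, against 221 and 181 in control) gave -0.14 and 0.11. The 2 probes lie far apart in the gene (the second at chr1:24201545-24201604), and without the loess step the first was positive on array 2 (0.19).

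Col9a2 gave 28541 and 21737 in Smad4cKO, against 19825 and 20760 in control. Its ratios of 0.53 and 0.07 averaged 0.30 (SE 0.161, n = 2 arrays), and Col9a3 gave 0.01 on both arrays. Col22a1, a collagen of tissue junctions, gave 701 and 742 in Smad4cKO, against 752 and 788 in control, ratios of -0.10 and -0.09. The fibril-associated Col12a1 (-0.41 and 0.20) and Col14a1 (-0.40 and 0.31) had the sign of the red dye on both arrays at their brightest probes. The second Col14a1 probe, shown above, had the sign of the green dye on both (0.20 and -0.34). Col16a1 gave 0.39 and -0.0031, and Col20a1 -0.07 and 0.15. Col19a1 was not well above background in any channel.

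Of the cartilage markers, 6 of 10 were tested. Comp, Matn1, Matn3 and Snorc were not bright enough to be tested. Hapln1 (0.85 and 0.76) was brighter past 1.5-fold on both arrays, beside 0.49% of all genes. Sox9 gave 0.11 and 0.13, Epyc -0.51 and -0.35, and Matn4 -0.07 and -0.12. Acan (-0.13 and 0.05) and Cnmd (0.14 and -0.11) had opposite signs on the arrays. The summed level of the 6 tested markers was 13086 and 12296 in Smad4cKO, against 12504 and 11906 in control. Matn4 alone gave 6510 and 6166 in Smad4cKO, against 6824 and 6682 in control. Their part in the type II, IX and XI collagen values was not tested.

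Of the other collagens, Col23a1 had the highest mean ratio of all 38. It encodes a transmembrane collagen. Its brightest probe (chr11:51396885-51396944, mm9, plus strand) gave 23519 and 21316 in Smad4cKO, against 14797 and 18044 in control. The groups did not overlap, and the ratios of 0.67 and 0.24 averaged 0.45 (SE 0.157, n = 2 arrays; limma's adjusted p 0.751). The other 2 probes gave 0.36 and 0.54, and 0.68 and 0.37, so all 3 probes were brighter in Smad4cKO on both arrays.

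Type VI collagen forms beaded microfibrils that link cells to the matrix. Its main chains tested here gave small ratios: Col6a1 0.27 and 0.07, and Col6a2 0.06 and 0.27. The chains Col6a4 and Col6a6, which can take the place of the Col6a3 chain, had lower values in Smad4cKO. Col6a6 (chr9:105591795-105591854, mm9, minus strand) gave 3676 and 4548 in Smad4cKO, against 5376 and 5337 in control. Its ratios of -0.55 and -0.23 averaged -0.39 (SE 0.146, n = 2 arrays; limma's adjusted p 0.86), and the second probe gave -0.55 and -0.50. Col6a4 gave 274 and 294 in Smad4cKO, against 370 and 358 in control, with ratios of -0.44 and -0.29 (limma's adjusted p 0.847).

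Col7a1, the anchoring fibril of stratified epithelia, gave 2268 and 2432 in Smad4cKO, against 2767 and 2766 in control, ratios of -0.29 and -0.19. The basement membrane collagens Col15a1 (0.10 and -0.09) and Col18a1 (-0.16 and 0.19), which carry endostatin-like domains, had no shared sign. Among the transmembrane collagens, Col13a1 gave -0.12 and 0.07, Col17a1, a hemidesmosome component, 0.04 and 0.32, and Col25a1 -0.06 and -0.28. Col28a1 was well above background only in the Smad4cKO channel of array 1, at 204 against 115 in control, with 80.4 in Smad4cKO and 77.6 in control on array 2, and was not tested.

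Of the 12 collagens with more than 1 tested probe, 3 had the same sign at every probe on both arrays: Col8a2, Col6a6 and Col23a1. The share over all genes with several tested probes is not given here, so 3 of 12 is only a description. Of the 12, Col25a1 had 4 tested probes, whose mean ratios ran from -0.23 to -0.04, and Col9a1 had the widest range, from -0.50 to -0.02. Across the arrays the 38 collagens had Pearson's r of -0.14 and Spearman's rho of 0.18 between the 2 ratios. Without Col1a1, Col1a2 and Col3a1 the other 35 had 0.62 and 0.48. Those 3 genes were left out because of these same ratios, so the higher values are only a description. All genes tested had -0.07 and -0.20. These are descriptions over genes that share the same 4 RNAs.

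**Figure D4:**
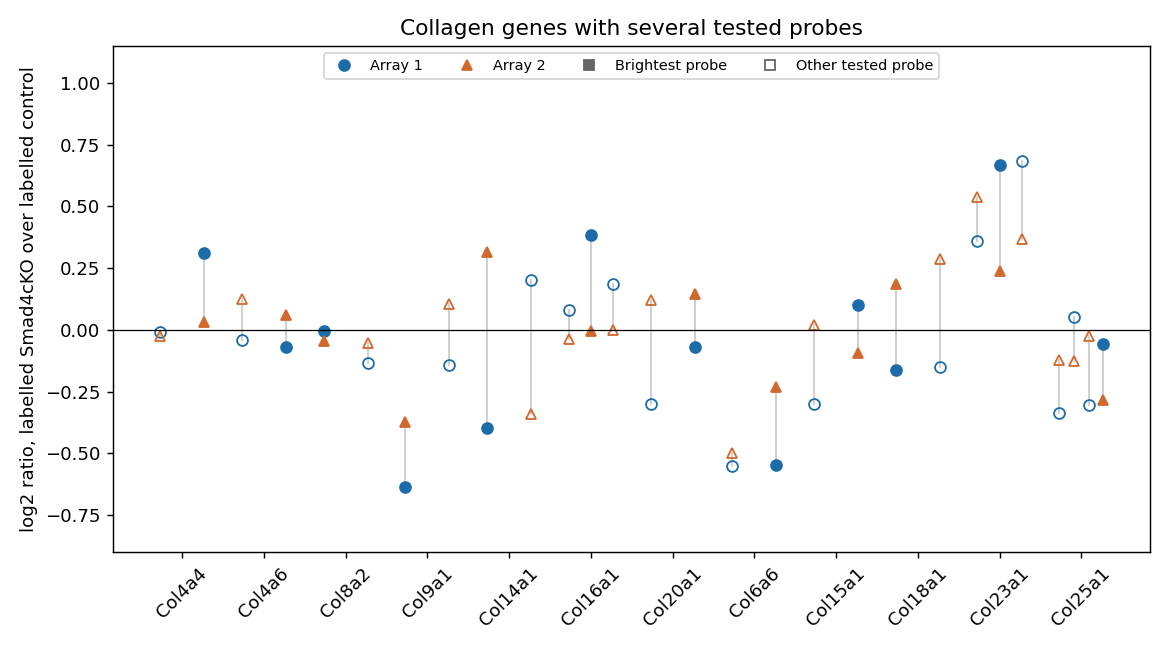
Log2 ratio of labelled Smad4cKO over labelled control at each tested probe of the 12 collagens with several, on array 1 (circles) and array 2 (triangles), filled for the brightest probe of the gene. All probes of Col23a1 lie above 0 and all of Col6a6 below it on both arrays, whereas the probes of Col9a1 are spread from -0.63 to 0.11.

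Enzymes and carriers that modify, fold, secrete, cut and crosslink collagen had medians near 0. Of 20 modification and folding genes, all tested, the median log2 ratio was 0.02, 5 were brighter on both arrays, beside 19.9% of all genes, and 6 dimmer, beside 19.8%. Of the 20, 0 passed 1.5-fold on both arrays, beside 0.49% of all genes brighter and 0.523% dimmer. Plod2, a lysyl hydroxylase of collagen telopeptides, gave 0.33 and 0.42. P4ha2, a prolyl hydroxylase subunit, gave 0.35 and 0.25, and P3h2, a prolyl 3-hydroxylase, -0.52 and -0.17. Of 18 processing and crosslinking genes, 17 were tested, with a median of -0.0027. Of these, 2 passed 1.5-fold in opposite directions, red on both arrays, beside 1.25% of all genes in opposite directions. They were Fn1 (-0.98 and 0.92) and Sparc (-0.61 and 0.92). The lysyl oxidase family, which crosslinks collagen, lay on both sides of 0. Loxl4 gave -0.77 and -0.46 and Lox -0.67 and -0.31, whereas Loxl1 gave 0.22 and 0.33, Loxl2 0.09 and -0.07, and Loxl3 -0.03 and -0.01. Adamts14, a procollagen N-propeptidase, gave 0.38 and 0.56. Of 10 collagen receptors, 8 were tested, with a median of -0.02, and none passed 1.5-fold on both arrays. The integrin subunits Itga1 and Itga11 gave -0.47 and -0.23, and -0.27 and -0.19, whereas Itga10 gave 0.48 and 0.05 and Itgb1 0.30 and 0.01.

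Of the marker lists for other cell types in the ureter, some leaned to 1 side and others did not, and none of their genes passed limma (lowest adjusted p 0.0656). All 8 smooth muscle markers were brighter in Smad4cKO on both arrays, beside 19.9% of all genes, and 6 passed 1.5-fold on both, beside 0.49%. Their median was 1.44, and their summed level was 76848 and 98062 in Smad4cKO, against 49219 and 45786 in control. Of 8 outer fibrous layer markers, 3 (Dpt, Aldh1a2 and Gdf10) were dimmer past 1.5-fold on both arrays, beside 0.523% of all genes, 4 had opposite signs and the median was 0.0088. The 1 marker brighter on both arrays, Osr1, gave 0.29 and 0.33. The summed level was 288475 and 376548 in Smad4cKO, against 373453 and 264564 in control, so it was higher in the red channel on both arrays. The same list holds Lum and Dcn, which were -0.47 and 1.08, and -0.45 and 1.06, also red on both arrays. Dcn alone gave 105942 and 153618 in Smad4cKO, against 144700 and 73652 in control. Of 8 neural markers 7 were dimmer on both arrays, beside 19.8% of all genes, with summed levels of 13649 and 13776 in Smad4cKO, against 17025 and 14861 in control, and 2 of 8 kidney markers, Gdnf and Wt1, were dimmer past 1.5-fold on both, beside 0.523% of all genes. Of the 8 kidney markers, 5 were dimmer on both arrays, beside 19.8% of all genes, and 3 had opposite signs, beside 60.3%. The 3 were Six2 (0.25 and -1.05), Pax2 (-0.18 and 0.16) and Pax8 (0.20 and -0.0030). The 8 kidney markers summed to 16722 and 16067 in Smad4cKO, against 23732 and 22445 in control. Wt1 alone gave 4127 and 4441 in Smad4cKO, against 9116 and 7794 in control. Of the urothelial, endothelial and macrophage markers 0 passed 1.5-fold on the same side of 0 on each array, and 6 of 11, 4 of 8 and 6 of 8 had opposite signs, beside 60.3% of all genes. The part of any of these cell types in the collagen values was not tested, and fewer cells of a type cannot be told apart from less RNA per cell in whole ureters.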

How the data were processed

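The deposited scanner files came from Agilent Feature Extraction 10.7.3.1, according to the submitters' processing notes. Each gives, per the file headers, the intensity of every spot in both channels. The authors' deposited value table lists a signed fold between channels, treated as a score. Its log2 values correlated with the processed Smad4cKO over control ratio at -0.777 and -0.768, so by the dye labels it is control over Smad4cKO, and each column's median was 1. Its centring stays unknown. Both arrays share 1 slide and scan.

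Background correction used normexp with an offset of 50 (limma 3.58.1, statmod 1.5.0, R 4.3.3). Loess within each array followed, in which control spots had weight 0. Outlier spots stayed in the loess fit and were dropped when the spots of a probe were averaged. Probes entered the test if 1 labelled group was well above background in both of its channels (26670 probes in all, 54 of 61 collagen probes), and a gene was represented by its brightest such probe. Channel intensities are those after loess and Aquantile, offset included. The ratios of 21238 genes were tested against 0 with limma's lmFit and eBayes and Benjamini-Hochberg adjustment, with 1 residual and 4.89 prior degrees of freedom, so each SE rests mostly on the spread pooled over genes. The steps were tested on simulated data.

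Collagens described in full are those past 1.5-fold on both arrays, on the same or on opposite sides, and the 3 of each class with a shared sign and the largest smaller ratio. From each other list up to 4 genes were taken by the same order, and any gene named beyond these was picked with its values in view. The members and lists were chosen with earlier results of these data known. Coordinates are those of the scanner files (mm9). RefSeq tables (GRCm38.p6) matched 58 collagen probes by accession, and 3 probes that RefSeq names as collagens carry other names on the array and were left out. The alternatives were the processed signals, the deposited values, no background subtraction, an offset of 10, median centring, no filter, a stricter filter, the mean of a gene's probes, outliers kept, a variance trend with robust empirical Bayes, and each array alone.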

Additional observations from a re-analysis of the deposited data

Results flagged for a closer look

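In 3 collagens the female pair on array 1 and the male pair on array 2 moved in opposite directions past 1.5-fold. Col1a1 had a log2 ratio of -1.37 in the female pair and 1.44 in the male pair. Col1a2 had -0.95 and 0.85, and Col3a1 had -1.14 and 1.03. Each pair is 1 array, so the difference was not tested, and sex and dye cannot be told apart. With the authors' deposited table the signed folds, control over Smad4cKO, were 2.30 and -2.33 for Col1a1, 1.56 and -1.38 for Col1a2, and 1.97 and -1.80 for Col3a1.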

How the results depend on the processing

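Limma called 0 collagens in the analysis reported and 1, Col8a1, with processed signals, with the authors' deposited values and with an offset of 10, where its mean log2 ratio was -1.76, -1.75 and -1.38. With a variance trend and robust empirical Bayes it called 2, Col8a1 and Col24a1. Over all genes limma called 1 in the analysis reported, 303 with processed signals, 149 with the deposited values, 66 with the offset of 10, 705 with the variance trend, 4 where both groups had to be well above background, and 0 when arrays were median-centred, when a gene's probes were averaged and when outliers stayed in. Col8a1 alone was past 1.5-fold on both arrays under each of the 10 settings that gave ratios. Several of these settings return its main ratio unchanged, since it has 1 probe in 1 spot. On single arrays the number of collagens past 1.5-fold ran from 1 to 3 brighter and from 2 to 6 dimmer, and the median log2 ratio from -0.17 on array 1 to 0.026 on array 2. The 3 brighter collagens on array 2 were Col1a1, Col1a2 and Col3a1, whose red channel was the brighter one on both arrays. The same genes were among the 6 dimmer collagens on array 1. Of all 21238 genes tested, 256 were past 1.5-fold brighter and 684 dimmer on array 1. On array 2 these numbers were 635 and 242. At 2 arrays a single gene's spread has 1 degree of freedom, so its adjusted p depends on how spread is pooled over genes. With median centring 6 collagens were brighter and 8 dimmer on both arrays, beside 10 and 14 in the analysis reported, and 0 brighter and 1 dimmer had an unadjusted p under 0.05. The analysis reported is paired by array, since limma tests the ratio of Smad4cKO to control within each array, and no replicate block can be added to it.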
